A study of Mus musculus with 6 samples.

Results

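The genes described here are 35 mouse genes of autophagy and mitophagy, taken as a fixed list of symbols: the initiating kinases and lipid kinase complex, the conjugation enzymes, the Atg8 family (LC3 and GABARAP), cargo receptors, mitophagy genes and the transcription factors Tfeb and Tfe3. All 35 matched 1 row each of the 28786 Ensembl gene IDs in the table, and all 35 were among the 13662 genes with enough counts to test. They were measured in cells sorted as haematopoietic stem cells (HSCs) and by TMRM, a dye that collects more in mitochondria of higher membrane potential. Whether all of the cells were HSCs was not tested. There were 3 TMRM-high and 3 TMRM-low libraries, each of 1500 sorted cells. Cells of both groups came from the bone marrow of wild type C57BL/6 mice 6 to 8 weeks old, with no treatment named, and per the labels were negative for lineage markers and CD48 and positive for Sca-1, c-Kit and CD150. Whether separate mice or a pool gave the libraries is not in the labels, so p-values measure the spread between these libraries, which may be technical.

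Macroautophagy encloses cell contents in a double membrane, the autophagosome, and delivers them to lysosomes. The ULK kinase complex starts the process, a lipid kinase complex around VPS34 marks the membrane, and ubiquitin-like enzymes attach LC3 and GABARAP proteins to it, where they bind cargo receptors. In mitophagy the cargo is the mitochondrion, recognised either through the kinase PINK1, which builds up on mitochondria that have lost their membrane potential and is controlled largely at the protein level, or through receptors in the outer membrane such as BNIP3, NIX and FUNDC1. In mice, deletion of Atg7, Atg12 or Rb1cc1 in blood cells impairs HSC function. Autophagic activity is set mostly by protein modification and turnover, and RNA levels do not measure it.

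Of the 35 genes, 1 rose and 1 fell in TMRM-high libraries, and 33 did not pass the test. The gene that rose was Sqstm1, which encodes the ubiquitin-binding cargo receptor p62, and the gene that fell was Pink1. This is 5.71% of the members, whereas 11.0% of all tested genes were called, 5.84% higher and 5.12% lower. Called means a Benjamini-Hochberg adjusted p below 0.05 over all 13662 genes in edgeR's quasi-likelihood test, which is two-sided. Levels are in CPM, counts scaled to a common library total, after normalisation by edgeR's trimmed mean of M values. A log2 fold change above 0 means a higher level in TMRM-high libraries, and SE is its standard error.

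The 5′ regions of both called genes are shown with those of 2 members whose windows hold the E-box CACGTG, the core of the site bound by TFEB and TFE3. Each window is the 250 bases before the start of the gene in RefSeq on GRCm38.p6, written 5′ to 3′ on the strand of the gene. Capitals mark 4 motifs searched on both strands: the E-box CACGTG, its longer form TCACGTGA (which contains the E-box), the antioxidant response element core TGACNNNGC, and the GC box GGGCGG.
Sqstm1, chr11:50210821-50211070, minus strand: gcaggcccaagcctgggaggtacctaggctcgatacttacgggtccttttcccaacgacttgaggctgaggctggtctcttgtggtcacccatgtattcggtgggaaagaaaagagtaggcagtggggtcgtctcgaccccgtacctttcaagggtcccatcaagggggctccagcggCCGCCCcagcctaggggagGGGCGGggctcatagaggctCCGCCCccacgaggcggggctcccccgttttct
Pink1, chr4:138326297-138326546, minus strand: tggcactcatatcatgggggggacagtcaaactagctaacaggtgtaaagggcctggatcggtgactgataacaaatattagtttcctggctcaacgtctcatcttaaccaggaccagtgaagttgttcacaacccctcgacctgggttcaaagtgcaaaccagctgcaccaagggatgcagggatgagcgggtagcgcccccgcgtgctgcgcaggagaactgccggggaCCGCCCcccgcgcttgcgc
Atg3, chr16:45158579-45158828, plus strand: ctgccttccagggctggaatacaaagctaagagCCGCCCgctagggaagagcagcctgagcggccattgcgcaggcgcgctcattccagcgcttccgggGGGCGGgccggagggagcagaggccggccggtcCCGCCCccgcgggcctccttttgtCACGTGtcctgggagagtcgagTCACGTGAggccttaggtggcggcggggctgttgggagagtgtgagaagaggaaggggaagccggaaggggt
Bnip3, chr7:138909507-138909756, minus strand: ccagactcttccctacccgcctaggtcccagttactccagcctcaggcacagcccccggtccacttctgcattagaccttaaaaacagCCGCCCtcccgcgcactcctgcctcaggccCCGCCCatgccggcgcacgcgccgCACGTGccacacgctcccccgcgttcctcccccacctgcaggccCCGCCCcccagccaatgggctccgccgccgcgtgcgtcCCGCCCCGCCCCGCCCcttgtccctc

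The Sqstm1 window held 3 GC boxes and the Pink1 window 1, and neither held an E-box or the antioxidant response element core. The Atg3 window held 2 E-boxes, 1 of them in the longer form, and 3 GC boxes, while the Bnip3 window held 1 E-box and 6 GC boxes, some of which overlap. Windows were found for 28 of the 35 members, with 33 windows in all because some members had more than 1. For 24 of the 33 the 25 bases after the start occur in an annotated transcript of the gene, as they do for the 4 printed. E-boxes stood in 4 of the 33 member windows (Atg3, Atg5, Atg7 and Bnip3) and in 6.02% of the 32851 windows of all genes. The longer form stood in 1 member window and 0.79% of all windows. The antioxidant response element core was found in 3 of the 33 member windows (Ulk2, Atg13 and Tax1bp1) and in 10.16% of all windows. The GC box was found in 21 of the 33 member windows, from 19 members, and in 32.74% of all windows. None of the 4 members with an E-box was called in the reported fit, beside 5.71% of all members and 11.0% of all tested genes. With so few genes this says nothing about the E-box. A match describes the letters of the window and is no measurement of binding.

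Markers of other cell types moved with the groups. In TMRM-high libraries 12 of 14 tested granulocyte and monocyte markers rose and none fell, with a summed level of the list of 15336 to 15719 CPM in TMRM-high libraries, against 3679 to 4034 CPM in TMRM-low libraries. All 9 B cell markers rose, with a sum of 505 to 509 CPM in TMRM-high libraries, against 42.8 to 45.8 CPM in TMRM-low libraries. Of basophil and mast cell markers 4 of 7 rose (303 to 316 CPM in TMRM-high libraries, against 44.9 to 66.6 CPM in TMRM-low libraries), and of megakaryocyte markers 2 of 7 (405 to 413 CPM in TMRM-high libraries, against 115 to 145 CPM in TMRM-low libraries). Erythroid markers (8 of 14 rose, 1 fell) had a median log2 fold change of 1.68. Their sums overlapped, at 654 to 679 CPM in TMRM-high libraries, against 643 to 781 CPM in TMRM-low libraries. These sums include Car2, the marker that fell, which had the highest level of the list. It averaged 316 ± 7.13 CPM in TMRM-high libraries, against 552 ± 54.5 CPM in TMRM-low libraries. T and NK cell markers (1 of 8 rose, 4 fell) and macrophage markers (2 of 9 rose, 2 fell) went both ways. The B cell gene Ms4a1 had no count in TMRM-low libraries, where a count of 0 allows up to 0.163 to 0.187 CPM (3 counts per library). Of 12 HSC markers, 5 fell and none rose, and the list summed to 346 to 354 CPM in TMRM-high libraries, against 729 to 754 CPM in TMRM-low libraries. Cd48, whose protein the gate excluded, averaged 147 ± 2.82 CPM in TMRM-high libraries, against 137 ± 22.6 CPM in TMRM-low libraries (SD, n = 3 each). Slamf1, which encodes CD150, for which the gate selected, averaged 5.53 ± 0.569 CPM in TMRM-high libraries, against 5.13 ± 3.98 CPM in TMRM-low libraries. Kit, which encodes c-Kit, averaged 263 ± 4.93 CPM in TMRM-high libraries, against 248 ± 53.9 CPM in TMRM-low libraries. Ly6a, which encodes Sca-1 and is among the HSC markers that fell, did differ. It averaged 30.3 ± 2.18 CPM in TMRM-high libraries, against 167 ± 7.77 CPM in TMRM-low libraries (log2 fold change -2.47, edgeR adjusted p = 1.01e-05). In bulk RNA of this kind, fewer cells of a type and less RNA per cell cannot be told apart. The TMRM-high libraries were also far more alike: over genes with at least 20 counts in a pair, the chi-square divided by its degrees of freedom reached 3.98 to 6.74 for pairs of TMRM-high libraries, against 46.0 to 51.4 for pairs of TMRM-low libraries. Results are therefore also given with the 3 TMRM-high libraries summed into 1; the spread in that fit is estimated from the 3 TMRM-low libraries only, and the lone sum is assumed to vary as they do. Library totals were 14270069 to 22070594 estimated counts in TMRM-high libraries, against 15930495 to 18431567 in TMRM-low libraries, and 1 count is 0.0454 to 0.0694 CPM. Members had from 23 counts (Optn in 1 TMRM-low library) to 8144 counts (Tax1bp1) in a library.

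**Figure D1:**
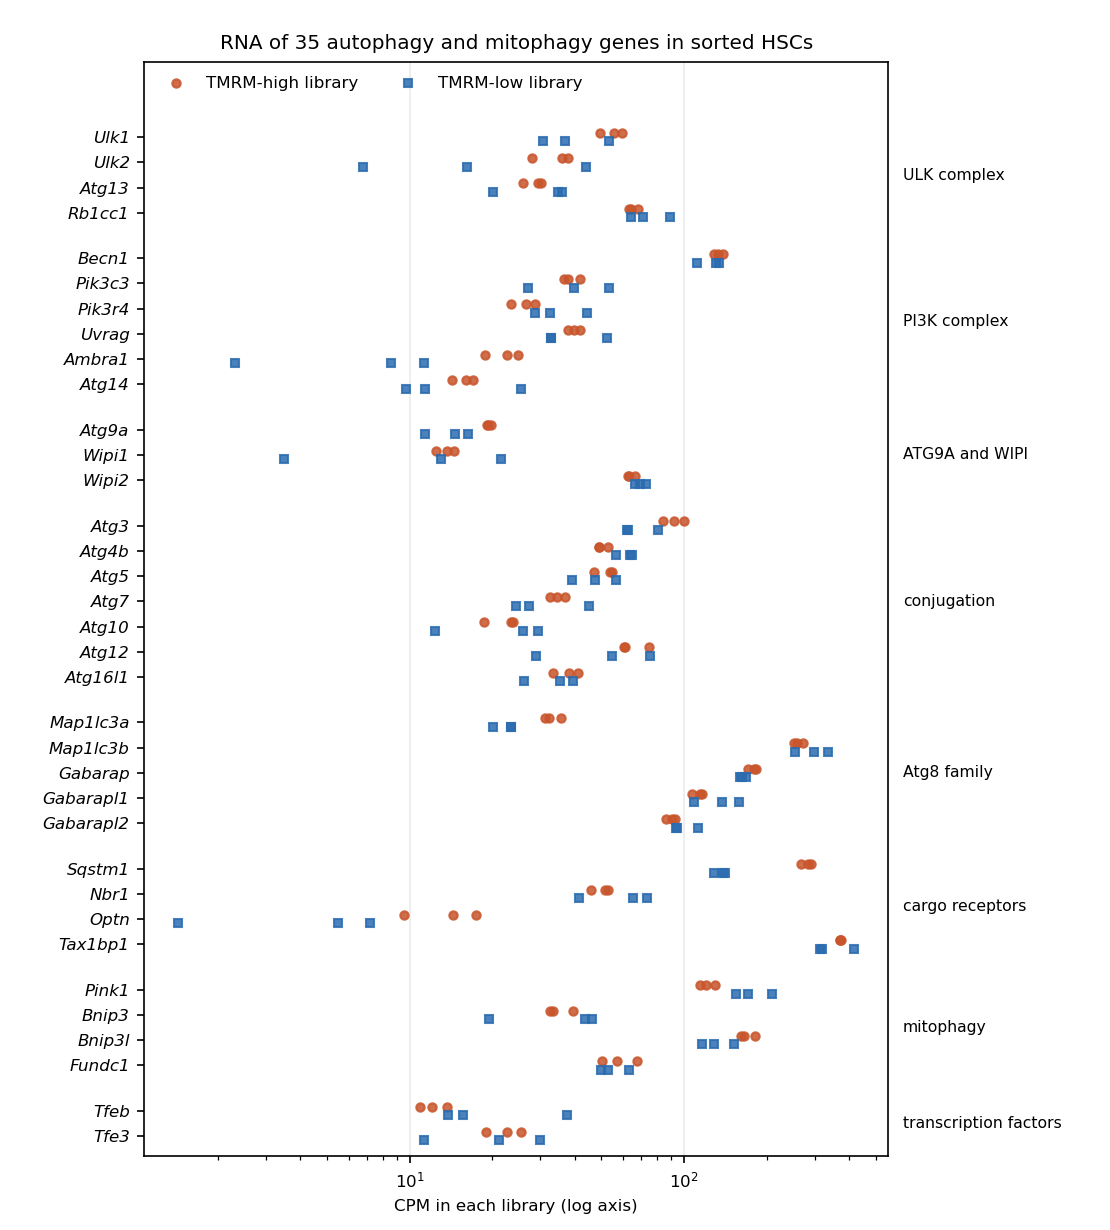
Level of each of the 35 genes in every library, in CPM on a log axis, grouped by role, with TMRM-high libraries as circles above TMRM-low libraries as squares. Sqstm1 shows 2 separate clusters of points, at 267 to 289 CPM in TMRM-high libraries, against 129 to 140 CPM in TMRM-low libraries, while most genes overlap and the TMRM-low squares scatter more widely.

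Among the cargo receptors, proteins that bind both ubiquitin-tagged cargo and LC3, Sqstm1 changed and its partners did not pass. Sqstm1 (ENSMUSG00000015837, chromosome 11, 50199366 to 50210827, GRCm38, minus strand) had 289, 267 and 283 CPM in the TMRM-high libraries, against 129, 138 and 140 CPM in the TMRM-low libraries. Every TMRM-high library lay above every TMRM-low library, and both groups were tight, with an SD of 4.07% of the mean in TMRM-high libraries, against 4.65% in TMRM-low libraries. Sqstm1 averaged 280 ± 11.4 CPM in TMRM-high libraries, against 136 ± 6.32 CPM in TMRM-low libraries (SD, n = 3 each), a 2.06-fold increase with a 95% interval of 1.83 to 2.32 (log2 fold change 1.04, SE 0.0733, edgeR adjusted p = 0.000155). The call held in the 14 alternatives that keep at least 2 TMRM-high libraries. With the TMRM-high libraries summed the edgeR adjusted p was 0.039, which rests on the spread of the TMRM-low libraries alone. Sqstm1 rose, as did the called granulocyte and monocyte, B cell, basophil and mast cell, megakaryocyte and, except Car2, erythroid markers given above. The part of these markers in the increase of Sqstm1 was not tested. Mrnip, a gene on the opposite strand that shares 17.28% of the exonic bases of Sqstm1, had 9.39 to 10.3 CPM in TMRM-high libraries, against 12.9 to 13.9 CPM in TMRM-low libraries. The library method does not mark strand; Mrnip was low in both groups, lower in TMRM-high libraries, and did not pass (edgeR adjusted p = 0.33).

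Tax1bp1, a receptor that also takes part in the clearance of protein aggregates, had 369, 370 and 372 CPM in the TMRM-high libraries, against 318, 417 and 314 CPM in the TMRM-low libraries. The TMRM-high values lay inside the range of the TMRM-low values, and its log2 fold change of 0.08 (SE 0.11) had an edgeR adjusted p of 0.69; without TMRM-low replicate 2 it was 0.23 and passed (adjusted p = 0.028). Nbr1, which binds ubiquitin and acts together with p62, had 46.0, 51.6 and 52.9 CPM in TMRM-high libraries, against 65.4, 41.6 and 73.2 CPM in TMRM-low libraries. Its groups overlapped (log2 fold change -0.26, SE 0.21, edgeR adjusted p = 0.51), and without TMRM-low replicate 2 Nbr1 passed as lower (log2 fold change -0.46, adjusted p = 0.0495). Optn, which encodes optineurin, a receptor used in PINK1-dependent mitophagy, had 9.57, 14.4 and 17.4 CPM in TMRM-high libraries, against 7.17, 1.44 and 5.50 CPM in TMRM-low libraries. Its groups did not overlap, but both were spread widely, and its log2 fold change of 1.55 (SE 0.58, 95% interval 0.21 to 2.89) did not pass (edgeR adjusted p = 0.14). Of the 4 receptors, 1 rose, 0 fell and 3 did not pass, beside 5.84% higher and 5.12% lower of all tested genes. With 4 genes this count says nothing about the receptors as a group. Within the summed CPM of the 4 receptors, Sqstm1 made up 38.0% to 40.5% in TMRM-high libraries, against 23.1% to 26.4% in TMRM-low libraries, and Tax1bp1 51.3% to 52.6% in TMRM-high libraries, against 58.9% to 69.7% in TMRM-low libraries.

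**Figure D2:**
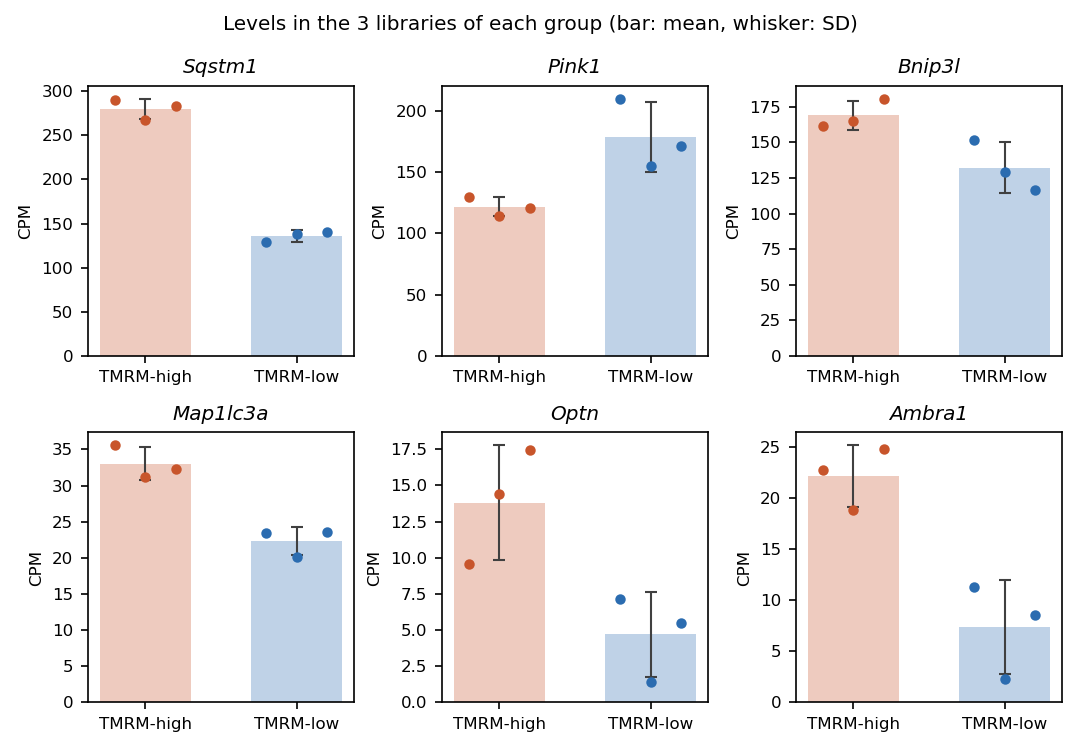
CPM of 6 genes in the 3 libraries of each group (points), with the mean as a bar from 0 and the SD as a whisker, TMRM-high on the left of each panel. The 6 genes shown all come from the members whose groups do not overlap. Such genes made up 37.1% of members and 35.4% of all tested genes. Only Sqstm1 and Pink1 passed the test over all genes. The TMRM-low values of Optn and Ambra1 run from 1.44 to 7.17 CPM and from 2.31 to 11.3 CPM.

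Among the 4 mitophagy genes, Pink1 fell and the 3 outer membrane receptors did not pass. Pink1 (ENSMUSG00000028756, chromosome 4, 138313409 to 138326307, GRCm38, minus strand) had 130, 114 and 121 CPM in the TMRM-high libraries, against 210, 155 and 171 CPM in the TMRM-low libraries. Each TMRM-high library was below each TMRM-low library, and TMRM-low replicate 1 was the highest of all. Pink1 averaged 122 ± 7.72 CPM in TMRM-high libraries, against 179 ± 28.3 CPM in TMRM-low libraries (SD, n = 3 each), 0.68 of the TMRM-low level with a 95% interval of 0.56 to 0.83 (log2 fold change -0.55, SE 0.12, edgeR adjusted p = 0.029). Leaving out TMRM-high replicate 1 ended the call (adjusted p = 0.096), as did leaving out replicate 2 (adjusted p = 0.15) or 3 (adjusted p = 0.14) and summing the TMRM-high libraries (adjusted p = 0.69), and the log2 fold change then ran from -0.60 to -0.51. Pink1 moved with the HSC markers, which fell as given above, and their part in its change was not tested. The ratio of Sqstm1 CPM to Pink1 CPM was 2.23 to 2.35 in TMRM-high libraries, against 0.61 to 0.90 in TMRM-low libraries.

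Bnip3l, which encodes NIX, the receptor that clears mitochondria from maturing red cells in mice, had 162, 165 and 181 CPM in TMRM-high libraries, against 152, 129 and 116 CPM in TMRM-low libraries. All TMRM-high values were above all TMRM-low values, yet the log2 fold change of 0.35 (SE 0.11, 95% interval 0.09 to 0.61) did not pass (edgeR adjusted p = 0.089). Bnip3l passed without TMRM-low replicate 1 (adjusted p = 0.021). Bnip3l-ps, a pseudogene that holds 23.72% of the 31-base words of Bnip3l transcripts, had at most 2.08 CPM in any library. Bnip3, a hypoxia-inducible relative of NIX, had 33.3, 39.3 and 32.5 CPM in TMRM-high libraries, against 46.1, 19.5 and 43.5 CPM in TMRM-low libraries. Its TMRM-high values lay between TMRM-low replicate 2 and the other TMRM-low libraries (log2 fold change -0.05, SE 0.31, edgeR adjusted p = 0.94). Of the 31-base words of Bnip3, 57.03% also occur in other annotated genes, so its counts are uncertain. Fundc1, a receptor that responds to low oxygen, had 50.4, 67.5 and 56.9 CPM in TMRM-high libraries, against 63.0, 49.9 and 53.0 CPM in TMRM-low libraries. Its groups overlapped, and the 95% interval of its log2 fold change ran from -0.30 to 0.45 (edgeR adjusted p = 0.82).

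The 5 genes of the Atg8 family encode the ubiquitin-like proteins that are joined to the autophagosome membrane, and none of them passed. Map1lc3b, which encodes LC3B, had 272, 253 and 258 CPM in TMRM-high libraries, against 297, 253 and 335 CPM in TMRM-low libraries. The groups met at their lower end (log2 fold change -0.18, SE 0.10, edgeR adjusted p = 0.34). Gabarap had 179, 183 and 171 CPM in TMRM-high libraries, against 169, 160 and 163 CPM in TMRM-low libraries. The groups did not overlap, but the gap between them was small, and the 95% interval of the log2 fold change was narrow, from -0.05 to 0.28 (edgeR adjusted p = 0.36). Gabarapl1 had 115, 116 and 107 CPM in TMRM-high libraries, against 137, 109 and 159 CPM in TMRM-low libraries (log2 fold change -0.26, SE 0.14, edgeR adjusted p = 0.29). Of the 31-base words of Gabarapl1, 25.22% also occur in 1700101I11Rik, for which no counts were given. Gabarapl2 had 85.7, 92.9 and 90.5 CPM in TMRM-high libraries, against 112, 93.5 and 94.6 CPM in TMRM-low libraries (log2 fold change -0.16, SE 0.11, edgeR adjusted p = 0.42). For Gabarapl1 TMRM-low replicate 2 lay among the TMRM-high values and without it Gabarapl1 passed as lower (adjusted p = 0.037), and for Gabarapl2 the groups were separate by less than 1 CPM. Map1lc3a, which encodes LC3A, had 35.6, 31.2 and 32.3 CPM in TMRM-high libraries, against 23.4, 20.1 and 23.5 CPM in TMRM-low libraries. Its groups were well apart, but the log2 fold change of 0.56 (SE 0.18, 95% interval 0.15 to 0.97) did not pass (edgeR adjusted p = 0.085), although it did without TMRM-low replicate 3 (adjusted p = 0.048). Map1lc3a made up 4.61% to 5.18% of the CPM of the family in TMRM-high libraries, against 3.03% to 3.17% in TMRM-low libraries. The family as a whole summed to 659 to 687 CPM in TMRM-high libraries, against 636 to 775 CPM in TMRM-low libraries, which overlap.

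**Figure D3:**
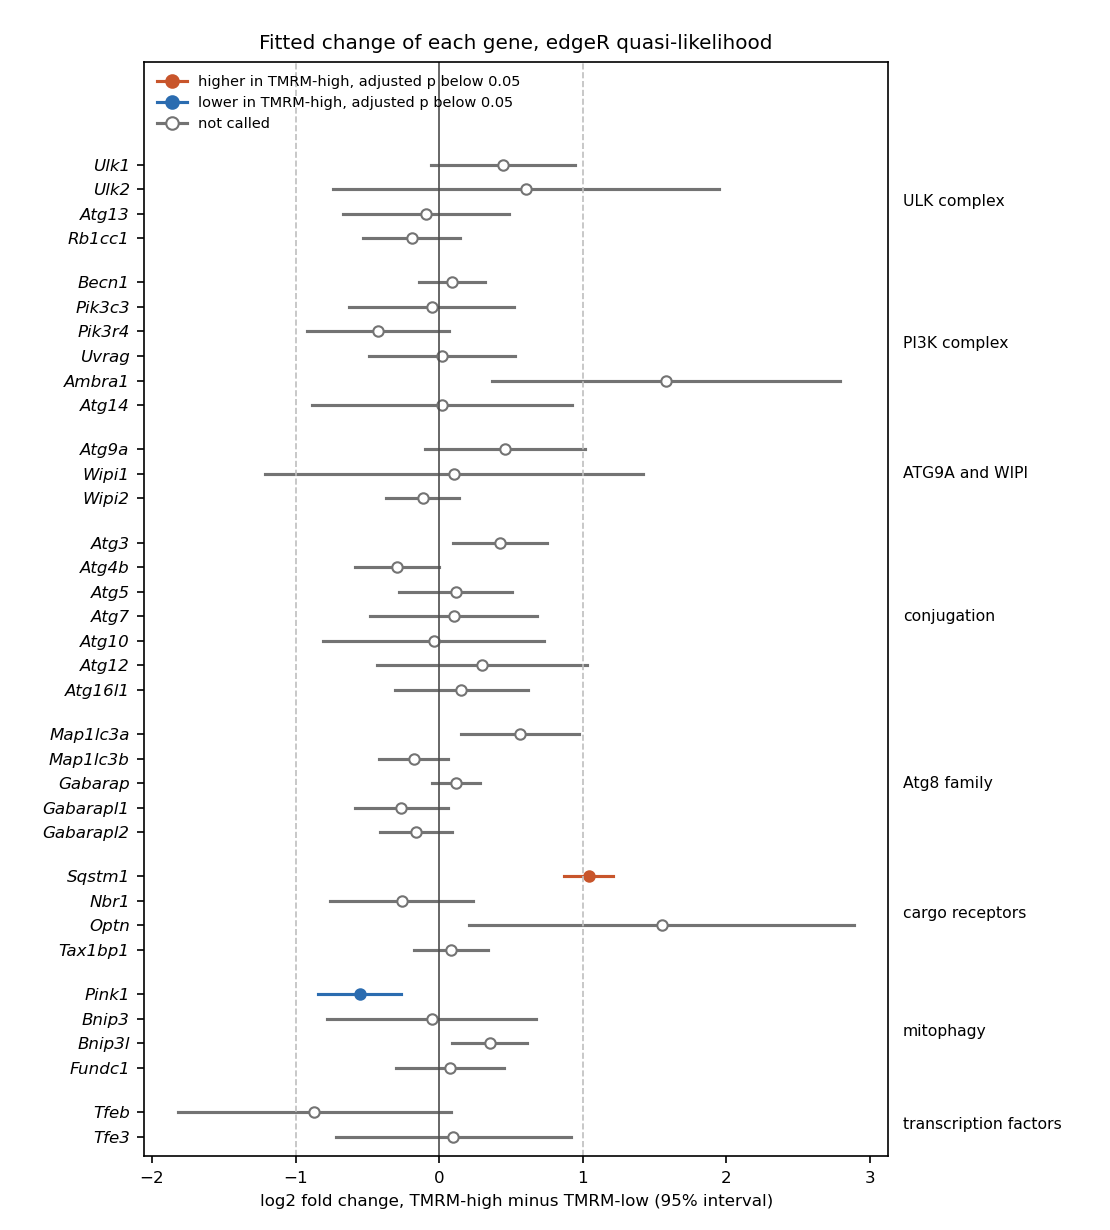
Log2 fold change of each gene (TMRM-high minus TMRM-low) with its 95% interval from the edgeR fit, grouped by role, with dashed lines at a 2-fold change. Sqstm1 at 1.04 and Pink1 at -0.55 are the filled points, and 27 of the 35 intervals lie wholly between the dashed lines.

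The conjugation enzymes prepare LC3 and GABARAP and attach them to lipid. None of the 7 passed, and their median log2 fold change was 0.12. Atg3, the E2-like enzyme that transfers LC3 to lipid, had the smallest p of them, with 91.8, 99.7 and 83.6 CPM in TMRM-high libraries, against 62.6, 61.9 and 80.7 CPM in TMRM-low libraries. The groups did not overlap, although TMRM-low replicate 3 came close to TMRM-high replicate 3 (log2 fold change 0.42, SE 0.14, edgeR adjusted p = 0.10), and without TMRM-low replicate 3 Atg3 passed (adjusted p = 0.022). Atg4b, the protease that trims LC3 and GABARAP, was at 48.9 to 52.7 CPM in TMRM-high libraries, against 56.4 to 64.4 CPM in TMRM-low libraries, also without overlap and without passing (log2 fold change -0.29, SE 0.13, edgeR adjusted p = 0.19). The others overlapped. Atg7, the E1-like activating enzyme, ranged from 32.5 to 36.8 CPM in TMRM-high libraries, against 24.5 to 45.1 CPM in TMRM-low libraries. Atg10, the E2-like enzyme for ATG12, ranged from 18.7 to 23.7 CPM in TMRM-high libraries, against 12.4 to 29.3 CPM in TMRM-low libraries. The members of the E3-like complex did likewise: Atg5 was at 46.9 to 54.6 CPM in TMRM-high libraries, against 39.2 to 56.5 CPM in TMRM-low libraries. Atg12 was at 60.3 to 74.4 CPM in TMRM-high libraries, against 28.8 to 75.3 CPM in TMRM-low libraries, and Atg16l1 at 33.2 to 41.0 CPM in TMRM-high libraries, against 26.1 to 39.4 CPM in TMRM-low libraries. Their log2 fold changes lay between -0.04 (Atg10) and 0.30 (Atg12).

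None of the 4 genes of the ULK complex passed. Ulk1, the kinase that starts autophagy under the control of AMPK and mTOR, had 59.3, 49.2 and 55.8 CPM in TMRM-high libraries, against 30.7, 53.1 and 37.0 CPM in TMRM-low libraries. TMRM-low replicate 2 lay among the TMRM-high values (log2 fold change 0.44, SE 0.22, edgeR adjusted p = 0.25), and without it Ulk1 passed (log2 fold change 0.70, adjusted p = 0.031). Ulk2, the related kinase, ranged from 28.0 to 37.6 CPM in TMRM-high libraries, against 6.75 to 43.8 CPM in TMRM-low libraries, the largest relative range of the 35 genes in TMRM-low libraries. Its log2 fold change of 0.61 (SE 0.58, edgeR adjusted p = 0.57) became 1.56 without TMRM-low replicate 2 (adjusted p = 0.051). Atg13, a regulatory subunit, ranged from 25.9 to 30.1 CPM in TMRM-high libraries, against 20.2 to 36.0 CPM in TMRM-low libraries. Rb1cc1, which encodes the scaffold FIP200, ranged from 63.2 to 67.9 CPM in TMRM-high libraries, against 63.8 to 88.6 CPM in TMRM-low libraries. All 4 overlapped between the groups.

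The lipid kinase complex makes the phosphatidylinositol 3-phosphate that recruits later factors, and none of its 6 genes passed. Ambra1, which encodes a regulator of Beclin 1, had the smallest p, with 22.7, 18.8 and 24.8 CPM in TMRM-high libraries, against 11.3, 2.31 and 8.55 CPM in TMRM-low libraries. The groups did not overlap, and TMRM-low replicate 2 was the lowest. The fitted change was 2.99-fold, larger than that of Sqstm1, but its log2 fold change of 1.58 had an SE of 0.52 and a 95% interval of 0.37 to 2.79 (edgeR adjusted p = 0.10). Without TMRM-low replicate 2 Ambra1 passed (adjusted p = 0.030). Becn1, which encodes Beclin 1, was at 129 to 139 CPM in TMRM-high libraries, against 111 to 135 CPM in TMRM-low libraries, with a 95% interval of -0.14 to 0.32 on the log2 scale. Becn1 shares 43.93% of its annotated exonic bases with Cntd1 on the opposite strand, which had at most 6.65 CPM. The lipid kinase gene Pik3c3 (VPS34) was at 36.6 to 41.8 CPM in TMRM-high libraries, against 27.0 to 53.5 CPM in TMRM-low libraries. Its partner Pik3r4 (VPS15) was at 23.5 to 28.6 CPM in TMRM-high libraries, against 28.8 to 44.3 CPM in TMRM-low libraries, without overlap and without passing (edgeR adjusted p = 0.27). Atg14, which directs the complex to autophagosome formation, was at 14.2 to 17.0 CPM in TMRM-high libraries, against 9.74 to 25.5 CPM in TMRM-low libraries. Uvrag, which directs it to endosomes, was at 37.9 to 42.0 CPM in TMRM-high libraries, against 32.7 to 52.6 CPM in TMRM-low libraries.

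Atg9a encodes a lipid scramblase on vesicles that seed the membrane. It had 19.3, 19.8 and 19.2 CPM in TMRM-high libraries, against 11.4, 14.7 and 16.4 CPM in TMRM-low libraries. The TMRM-high libraries were above the others and almost equal (log2 fold change 0.46, SE 0.24, edgeR adjusted p = 0.28). Atg9a shares 31.79% of its annotated exonic bases with Gm29253 on the same strand, for which no counts were given, so its counts are uncertain. The lipid-binding adaptor Wipi1 was at 12.5 to 14.6 CPM in TMRM-high libraries, against 3.48 to 21.5 CPM in TMRM-low libraries, and Wipi2, which recruits ATG16L1, at 62.4 to 66.5 CPM in TMRM-high libraries, against 66.0 to 72.9 CPM in TMRM-low libraries. Neither adaptor passed, and the log2 fold change of Wipi1, 0.10 in all libraries, was 0.72 without TMRM-low replicate 2 and -0.34 without TMRM-low replicate 3. Of the 2 transcription factors that drive lysosome and autophagy genes, Tfeb had 13.7, 10.9 and 12.1 CPM in TMRM-high libraries, against 37.5, 15.7 and 13.8 CPM in TMRM-low libraries. TMRM-low replicate 1 stood far above the rest, while the other TMRM-low libraries were close to the TMRM-high ones (log2 fold change -0.87, SE 0.41, edgeR adjusted p = 0.23). Without that library the log2 fold change of Tfeb was -0.26 (adjusted p = 0.49). Tfe3 was at 18.9 to 25.4 CPM in TMRM-high libraries, against 11.3 to 30.0 CPM in TMRM-low libraries and did not pass (edgeR adjusted p = 0.90).

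Counts over the 35 members were set beside the same counts over all tested genes. This is description only, because earlier results of these data were known when the members were chosen. The groups did not overlap for 13 of 35 genes, 8 with TMRM-high above and 5 with TMRM-high below, or 37.1% of members, while 35.4% of all tested genes had groups without overlap (18.4% with TMRM-high above and 17.0% below). At an unadjusted p below 0.05 there were 8 members (6 higher and 2 lower), 22.9% of the list, against 25.6% of all tested genes. The median log2 fold change was 0.08 over the members and -0.03 over all tested genes. The median size of the change, without its sign, was 0.18 over the members and 0.35 over all tested genes. Fitted changes of at least 2-fold were found for 3 members (Sqstm1, Ambra1 and Optn), 8.57% of the list, and for 16.0% of all tested genes. The 95% interval of the log2 fold change lay within 2-fold in both directions for 27 members, or 77.1%, and for 47.4% of all tested genes. It reached beyond 2-fold for Sqstm1, Ulk2, Ambra1, Atg9a, Wipi1, Atg12, Optn and Tfeb, and for the last 7, which did not pass, a 2-fold change lies within the interval. These intervals take the TMRM-high libraries as separate replicates.

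The members varied more among TMRM-low than among TMRM-high libraries. The SD as a percent of the mean was larger in TMRM-low libraries for 33 of 35 members, with Gabarap and Fundc1 as the exceptions, and for 90.4% of all tested genes. Its median over the members was 7.36% in TMRM-high libraries, against 20.2% in TMRM-low libraries, and over all tested genes 8.00% in TMRM-high libraries, against 28.2% in TMRM-low libraries. Tax1bp1 had the smallest value in TMRM-high libraries, 0.40%, and Ulk2 the largest in TMRM-low libraries, 86.5%.

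**Figure D4:**
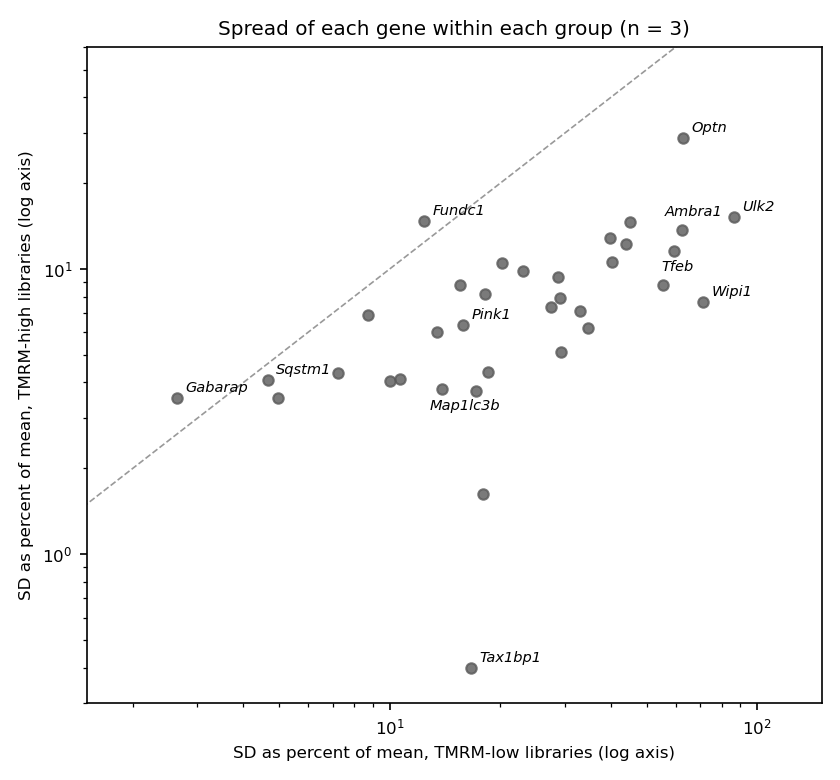
SD as a percent of the mean for each of the 35 genes, in TMRM-low libraries on the horizontal axis and in TMRM-high libraries on the vertical axis, both log axes, n = 3 each, with a dashed line of equal spread. All genes but Gabarap and Fundc1 lie below the line, which means a wider spread in TMRM-low libraries, and Ulk2 lies farthest to the right at 86.5%.

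Levels were compared between genes per kilobase, with CPM divided by the median length of the coding transcripts of the gene in GENCODE M21. In TMRM-high libraries the order was Gabarap (169 CPM per kilobase), Map1lc3b (158), Sqstm1 (137), Gabarapl1 (125), Tax1bp1 (113), Becn1 (89.4), Fundc1 (71.5) and Pink1 (71.1). In TMRM-low libraries it was Map1lc3b (178 CPM per kilobase), Gabarap (156), Gabarapl1 (150), Tax1bp1 (106), Pink1 (104), Becn1 (84.0), Fundc1 (67.9) and Sqstm1 (66.7). By this length Sqstm1 stood below only Gabarap and Map1lc3b in TMRM-high libraries, and below all 7 of these others in TMRM-low libraries. The lowest levels per kilobase were those of Atg14, Ambra1 and Atg9a in TMRM-high libraries, at 4.38, 4.40 and 4.81, and of Ambra1, Optn and Atg9a in TMRM-low libraries, at 1.47, 1.87 and 3.50. This order depends on the length used: per kilobase of all merged exons, Map1lc3b, whose annotated exons are long, had 34.7 in TMRM-high libraries, against 39.2 in TMRM-low libraries and stood below Gabarap (96.4 in TMRM-high libraries, against 88.9 in TMRM-low libraries). Per kilobase of merged exons Sqstm1 had 83.4 in TMRM-high libraries, against 40.5 in TMRM-low libraries. In TMRM-low libraries it then stood above Map1lc3b, Tax1bp1, Fundc1 and Becn1, and below Gabarap, Gabarapl1 and Pink1. Gabarapl2, which is not among the genes ordered above, also stood above Sqstm1 by this length in TMRM-low libraries, at 43.1. Per kilobase of coding transcript, Fundc1 and Pink1 in TMRM-high libraries, and Fundc1 and Sqstm1 in TMRM-low libraries, differ by less than the SD of Fundc1, which was 14.7% of its mean in TMRM-high libraries, against 12.4% in TMRM-low libraries.

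Of 76 further genes of the pathway, listed by function except Atg4d, 74 were tested. Of these 4 rose and 5 fell, 12.2% of those tested against 11.0% of all genes. The 5 and the 12.2% include Atg4d, which was named after its values were seen, so the 2 shares cannot be compared as a result. Ncoa4, the receptor that takes ferritin to lysosomes, was at 242 ± 3.04 CPM in TMRM-high libraries, against 164 ± 5.80 CPM in TMRM-low libraries (SD, n = 3 each; log2 fold change 0.56, SE 0.067, edgeR adjusted p = 0.0020). Rtn3, a receptor for the degradation of endoplasmic reticulum, rose by 0.38 on the log2 scale (SE 0.077, edgeR adjusted p = 0.020). Epg5, which tethers autophagosomes to lysosomes, rose by 1.40 on the same scale (SE 0.29, edgeR adjusted p = 0.021), and Hif1a, the oxygen-regulated transcription factor, by 0.75 (SE 0.15, edgeR adjusted p = 0.022). Among those that fell, Vcp, an ATPase that extracts ubiquitinated proteins and acts in mitophagy, was at 411 ± 2.00 CPM in TMRM-high libraries, against 516 ± 13.2 CPM in TMRM-low libraries (log2 fold change -0.33, SE 0.051, edgeR adjusted p = 0.0070). Bcl2, which binds Beclin 1, fell by 0.56 on the log2 scale (SE 0.085, edgeR adjusted p = 0.0065). Keap1, the adaptor that marks the factor NRF2 for degradation and is bound by p62, fell by 0.52 (SE 0.13, edgeR adjusted p = 0.044), and Nipsnap1, a mitochondrial protein that binds cargo receptors, by 0.56 (SE 0.14, edgeR adjusted p = 0.046). Atg4d, a relative of Atg4b that was named after its values were seen, fell by 0.56 (SE 0.15, edgeR adjusted p = 0.048). The part of the cell type markers given above in these 9 changes was not tested. With the TMRM-high libraries summed none of these 9 passed. Without TMRM-high replicate 1 or 3 only Ncoa4 kept its call, and without TMRM-high replicate 2 Ncoa4 and Bcl2 did. Keap1 also lost its call without TMRM-low replicate 1 or 3. Atg4d also lost it with scaling by totals, with no low-count filter, with voom and with a block for the replicate number, Nipsnap1 with no low-count filter and with the block, and Epg5 with the block.

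**Figure D5:**
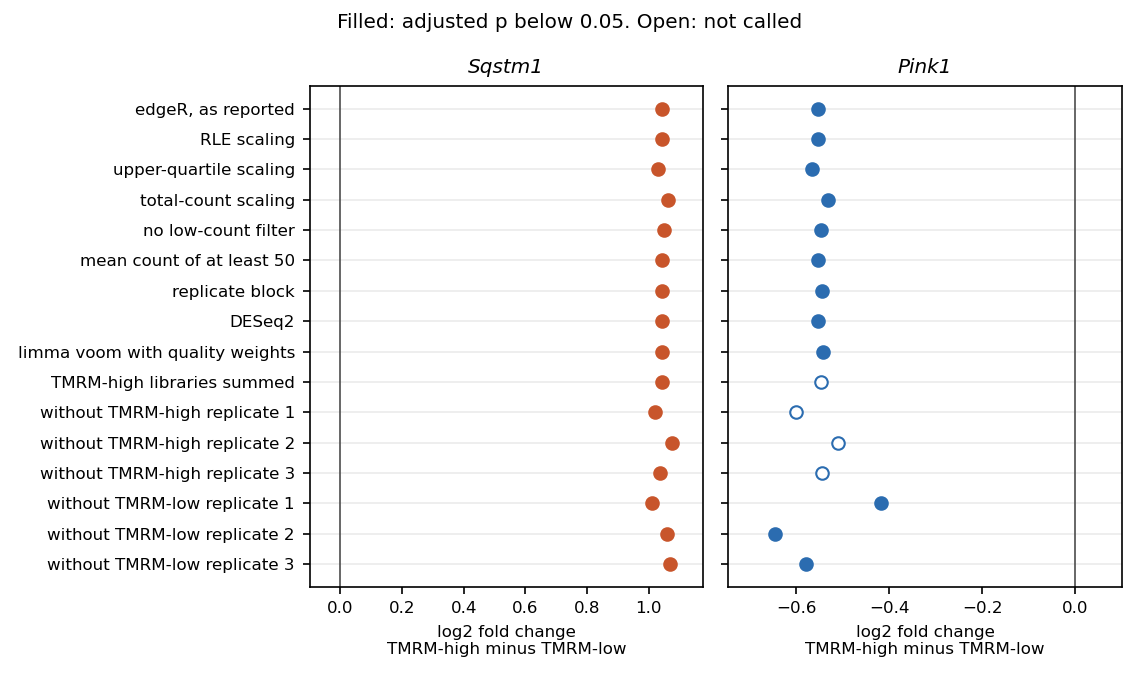
Log2 fold change (TMRM-high minus TMRM-low) of Sqstm1 and Pink1 in the reported fit and in 15 alternatives, with filled points where the adjusted p was below 0.05. Sqstm1 stays between 1.01 and 1.08 and is filled throughout, whereas Pink1 ranges from -0.65 to -0.42 and is open in 4 alternatives.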

How the data were processed

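RNA was measured in 3 TMRM-high and 3 TMRM-low libraries, grouped by their titles. The submitters' processing notes name the trimmer Trim Galore (0.5.0), the quantifier Salmon (given there as 0.03.1) and the build GRCm38; which annotation they used, and how transcripts were combined into genes, was not given in these sources. The authors deposited estimated counts for each gene, unscaled for depth; these were rounded here. Per the labels, cDNA was amplified by PCR; PCR copies count as reads, so the limit of 3 counts behind a 0 covers counting error only. Salmon divides reads between similar transcripts, so members with copies are uncertain. Symbols, positions and lengths came from GENCODE M21 (27797 of 28786 IDs matched) and promoter windows from RefSeq.

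Genes were kept by filterByExpr (13662), scaled by TMM and fitted with edgeR 4.0.16 (robust quasi-likelihood, group as the only term, R 4.3.3). The SE is the log2 fold change divided by the square root of F, and 95% intervals use the degrees of freedom of the fit. The fit was tested on simulated counts. The members and lists were chosen with earlier results of these data known. Values per library are given for called members, for the Atg8 family, cargo receptors and mitophagy genes, and for the member of each other role with the smallest p. The alternatives were DESeq2 1.42.0, voom with quality weights in limma 3.58.1, scaling by RLE, by upper quartile or by totals, keeping every gene or those with a mean of 50 counts or more, a block for the replicate number, the sum of the TMRM-high libraries, and each library left out in turn.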

Additional observations from a re-analysis of the deposited data

How the results depend on the processing

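Over 15 alternatives and 35 members, 481 values kept their direction and side of the threshold, 14 newly passed, 4 lost their call (Pink1) and 26 changed sign, the last in 11 members with main values of at most 0.12 in size. Higher and lower calls over all genes were 798 and 700 as reported, 1471 and 1471 with DESeq2, 86 and 42 with TMRM-high libraries summed, and 250 to 1398 and 181 to 1174 with a library left out. Among members, DESeq2 called 6 higher (Sqstm1, Ambra1, Atg3, Bnip3l, Map1lc3a and Optn) and 1 lower, limma voom 2 higher (Sqstm1 and Ambra1) and 1 lower, and the summed libraries 1 higher and 0 lower; with a library left out it was 1 to 4 higher and 0 to 3 lower. Without TMRM-low replicate 2, Ambra1, Tax1bp1 and Ulk1 were also higher and Gabarapl1 and Nbr1 lower; without replicate 1 Bnip3l, and without replicate 3 Atg3 and Map1lc3a, were also higher. Of the further pathway genes, 4 were higher and 5 lower as reported, 8 lower with DESeq2, 3 lower with no low-count filter, and 0 and 0 with the summed libraries; with a library left out it was 1 to 7 higher and 0 to 6 lower. Deviations from the group mean in libraries with the same replicate number correlated at -0.0139, 0.0165 and 0.021. These values show no pairing by number, but the wide spread among TMRM-low libraries could hide it. With the replicate block, 449 genes were lower and 3 further pathway genes were lower, while Sqstm1 and Pink1 kept their calls. Values that changed sign (log2) were Atg10 (0.043 with the replicate block, 0.0495 with voom), Bnip3 (0.0286 with the replicate block, 0.0468 with voom) and Pik3c3 (0.00051 with voom). With a library left out, the ranges of the members that changed sign were -0.31 to 0.0542 for Atg13, -0.27 to 0.22 for Pik3c3, -0.0939 to 0.29 for Uvrag, -0.23 to 0.58 for Atg14, -0.34 to 0.72 for Wipi1, -0.0020 to 0.26 for Atg5, -0.0599 to 0.42 for Atg7, -0.33 to 0.20 for Atg10, -0.35 to 0.16 for Bnip3, -0.0416 to 0.18 for Fundc1 and -0.20 to 0.46 for Tfe3. The cause of these differences was not tested. An exact permutation test of 3 against 3 libraries cannot go below p = 0.1.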
